A study of Mus musculus with 48 samples.

Results

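The 10 genes described here make up the core of the interleukin 1 (IL1) system. They are the agonist ligands Il1a and Il1b, the related cytokines Il33 and Il18, the receptor antagonist Il1rn, the signalling receptor Il1r1 with its accessory chain Il1rap, the decoy receptor Il1r2, and the inflammasome genes Nlrp3 and Casp1. They were found on the array by gene name, which gave 13 of its 55681 probes and 10 of its 34797 named genes. Il1rap had 3 probes and Nlrp3 had 2, while each of the other 8 genes had 1. Where a gene had several probes, the one with the highest mean over the 48 arrays stands for it, and values of its other probes are given beside it where their size or call differs.

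The samples came from a mouse model in which newborn pups were exposed to systemic inflammation. Male swiss pups were injected into the peritoneum with PBS, the control, or with IL1B protein at 10 ng/g, 2 times a day from postnatal day 1 (P1) to P4 and 1 time at P5. O4+ cells, which belong to the oligodendrocyte lineage, were pulled from the dissociated brain with magnetic beads, and CD11B+ cells, mainly microglia, were then taken from what the first isolation had left, so that both cell types came from the same animals according to the paper. Each sample was hybridised to its own 1-color Agilent array.

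There are 8 groups of 6 samples. The 4 groups of O4+ cells come from PBS pups at P5, IL1B pups at P5, PBS pups at P10 and IL1B pups at P10, and the 4 groups of CD11B+ cells have the same treatments and ages. The P5 samples were collected 2 h after the last injection according to the labels, while the paper's text gives a longer delay, and the P10 samples 5 days later. Tissue of several pups was pooled per sample according to the paper, so the spread within a group is a spread between pools. The cells were isolated by 1 surface marker each, and RNA of other cells that came through an isolation is part of the signal.

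IL1A and IL1B bind the receptor IL1R1, which then recruits the accessory chain IL1RAP and signals through MYD88 to NF-kappaB, and the antagonist IL1RN occupies the same receptor without signalling. IL1R2 binds the ligands but lacks a signalling domain and acts as a decoy. IL1B and IL18 are made as inactive precursors that caspase-1 cleaves once an inflammasome such as NLRP3 has assembled, and in the brain microglia are a main source of IL1B. The arrays measured RNA, so neither the injected protein nor the cleavage of precursors is seen in the values.

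A level below is the log2 of the background-subtracted signal of a probe after quantile normalization over the 24 arrays of a cell type. The 6 genes Il1b, Il18, Il1r1, Il1rap, Casp1 and Il1a were well above background on nearly every array, with Il1a on 47 of 48 and the other 5 on all 48. Nlrp3 was so on 44 arrays, Il33 on 41, Il1r2 on 34 and Il1rn on 16. A log2 change is the difference of group means with its standard error from the limma fit, and a fold is the ratio of the group medians of the signal. A gene was called when the p-value adjusted over all 55681 probes was under 0.05 and the fold over 1.5. These p-values measure the spread between the samples compared.

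The labels of the cell types were read against marker lists in the PBS samples. All 12 genes of the oligodendrocyte lineage list were called higher in O4+ than in CD11B+ cells at P5 and at P10, with a median log2 difference of 4.80 and 4.90, and so were all 6 genes of the progenitor list, with 4.63 and 3.23. Of the 15 microglia markers 13 were called lower in O4+ cells at each age, with a median of -3.01 at P5 and -4.65 at P10, and 1 was called higher. All 15 microglia markers were nevertheless well above background on each array of O4+ cells. Of 14 neutrophil and monocyte markers 13 were called lower in O4+ cells at each age, with medians of -5.46 at P5 and -6.05 at P10. All 6 markers of border-associated macrophages were called lower as well, with medians of -4.43 and -3.96. The part of these lists in the differences of the members between the cell types was not tested.

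After IL1B, transcripts of both agonist ligands rose in O4+ cells at P5 and at P10, together with Casp1, while Il1r1, Il1r2 and Nlrp3 rose in these cells at P5. In CD11B+ cells at P5 the ligands rose by smaller factors, and the inhibitors of the pathway, Il1r2 and Il1rn, had the largest folds. Il18 and Il33 were not called in any of these 4 comparisons of IL1B with PBS. The levels in every sample are drawn for O4+ cells and for CD11B+ cells. In bulk RNA of this kind, fewer cells of a type and less RNA per cell cannot be told apart.

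**Figure D1:**
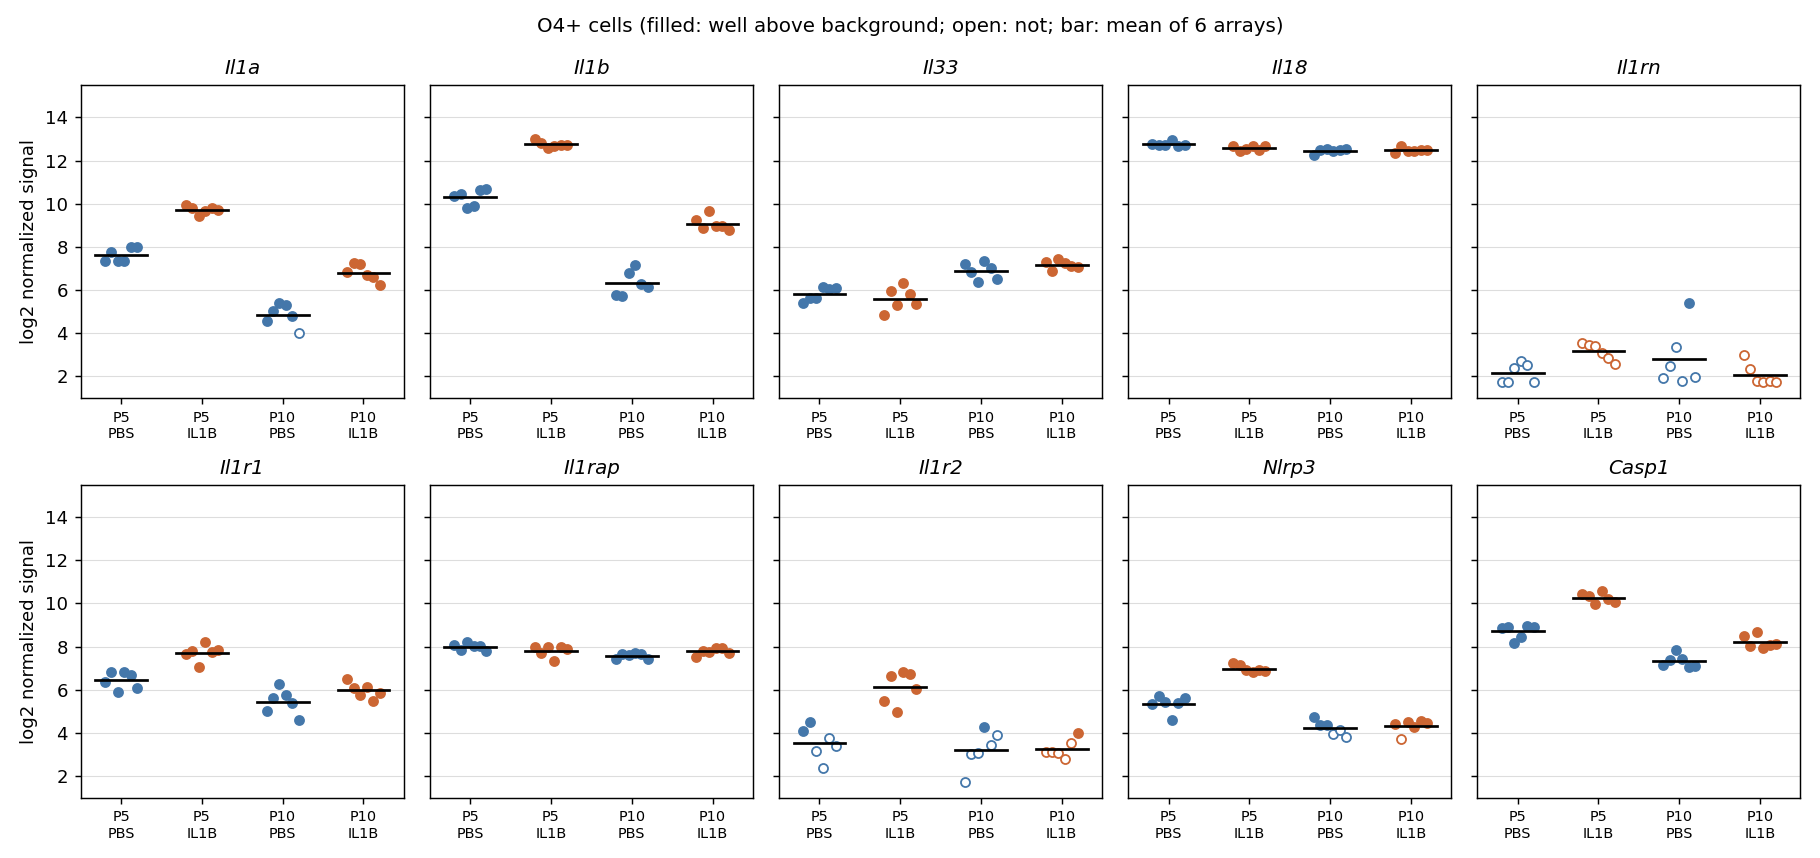
Each panel shows 1 of the 10 genes, with the log2 normalized signal on the y axis for the 6 arrays of each of the 4 groups of O4+ cells; filled points are well above background, open points are not, and a bar marks the mean of 6. Il1b rose from a median of 10.40 in PBS to 12.72 in IL1B samples at P5, and no point of Il1rn at P5 is filled.

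**Figure D2:**
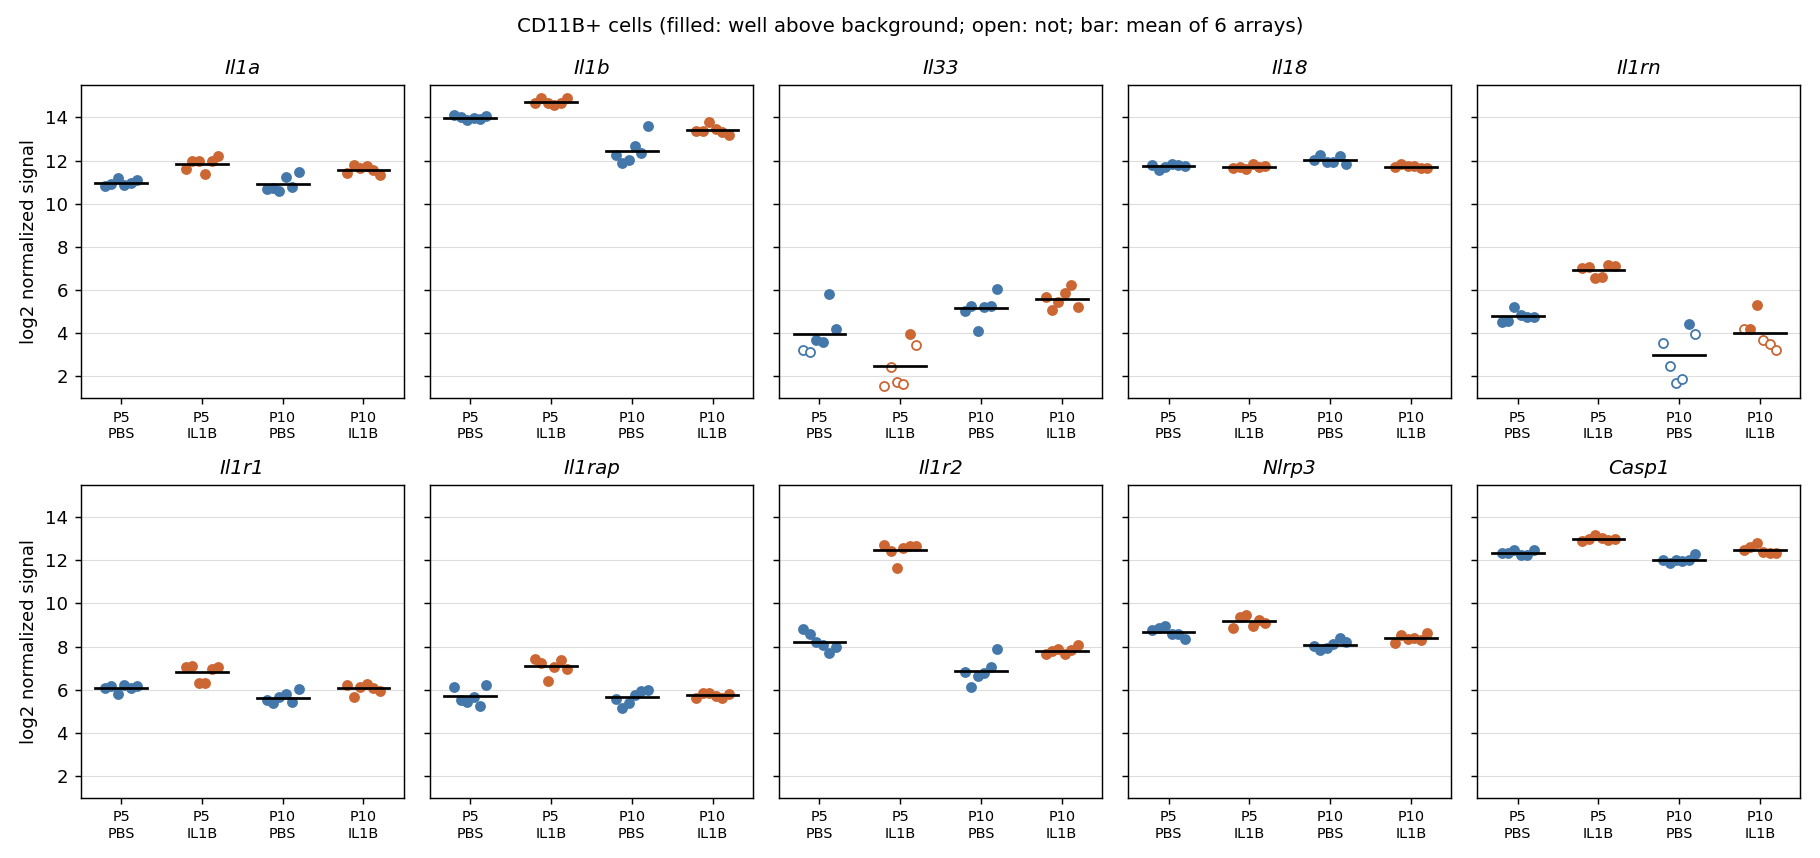
The same 10 genes in the 4 groups of CD11B+ cells, with the log2 normalized signal on the y axis, 6 arrays per group, filled points well above background, open points not, and a bar at the mean of 6. Il1r2 stood at a median of 8.15 in PBS and 12.63 in IL1B samples at P5, and the highest PBS point of Il1b at P10, 13.60, is replicate 6.

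Counted over the 10 genes, 7 were called in O4+ cells at P5, all of them higher after IL1B. Over all probes 3.42% were called higher and 1.48% lower in that comparison. Il1rn is 1 of these 7 although it was not above background in either group, so that 6 called genes were measured above background. At P10 in O4+ cells 3 of 10 were called, all higher, against 2.49% of all probes called higher and 1.42% lower. At P5 the count in CD11B+ cells was again 7 of 10, all higher, against 4.05% of probes called higher and 5.24% lower. Only 1 PBS array there, replicate 6, shares a slide with IL1B arrays, so a fit with the slide rests on it. Of these 7, Il1b, Il1rn and Il1r2 were also called with the slide in the fit, a count of 3.

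At P10 the CD11B+ cells had 2 of 10 genes called, both higher, against 1.09% of all probes called higher and 1.08% lower, and neither call held when the slide was part of the fit. Only 2 PBS arrays, replicates 5 and 6, share a slide with IL1B arrays here, so that fit rests on these 2. That fit called 0 of the 10 genes in limma, with 3 at an unadjusted p under 0.05, and it called 0 probes higher and 2 lower over the whole array. As a median over the 10 genes, the log2 change was 1.42 in O4+ cells at P5, 0.25 in O4+ cells at P10, 0.73 in CD11B+ cells at P5 and 0.44 in CD11B+ cells at P10. Over all probes the same medians were -0.04, -0.02, -0.01 and 0.00. The 4 shares of called members lie above those of the array, and the choice of these genes for a study of IL1B makes the counts a description of the members and not a test.

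**Figure D3:**
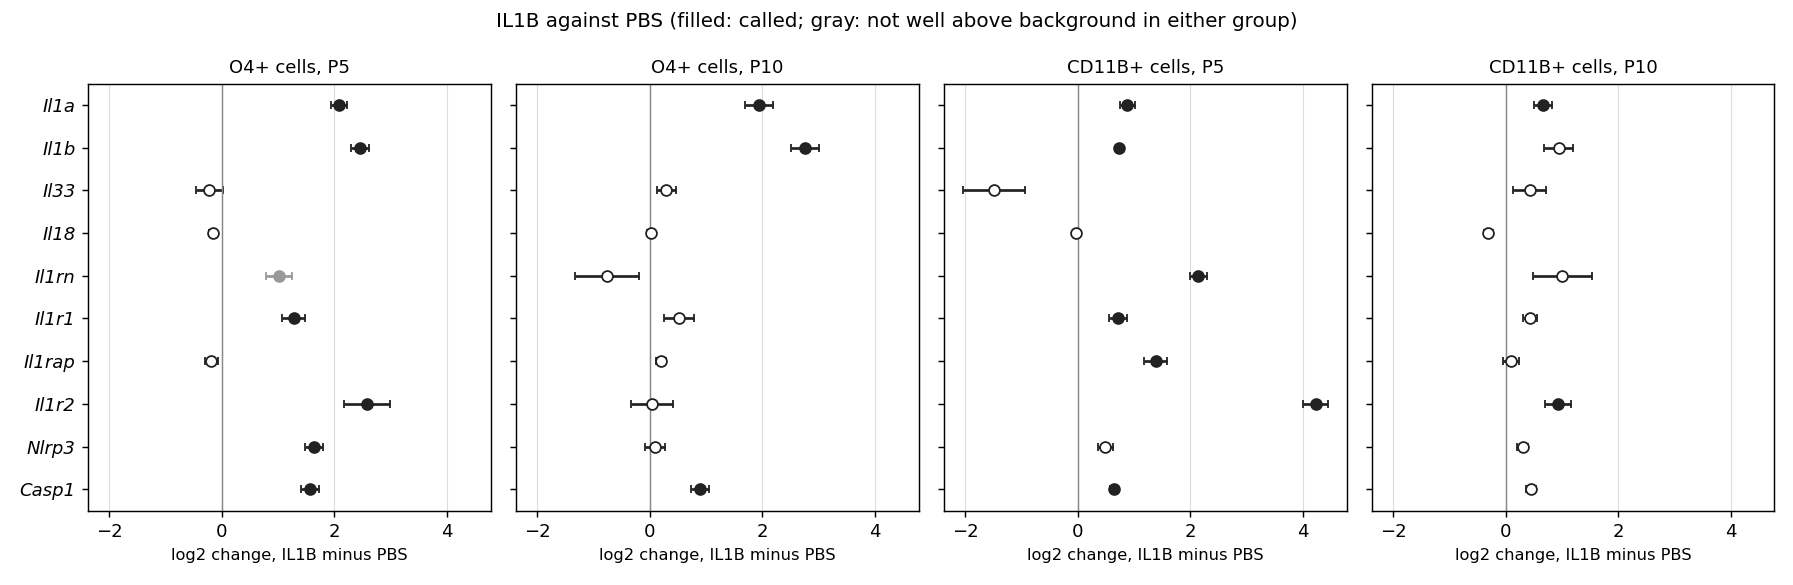
The log2 change from PBS to IL1B of each of the 10 genes (x axis, log2 units, error bars are the standard error of the limma fit, 6 arrays against 6) in O4+ and CD11B+ cells at P5 and P10, with filled points for called genes and gray for a gene not above background in either group. The largest change is that of Il1r2 in CD11B+ cells at P5, 4.23.

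Il1b encodes the secreted agonist, the same cytokine that was injected. In O4+ cells at P5 its level ranged over 9.79 to 10.68 (median 10.40) in PBS samples and over 12.56 to 13.01 (median 12.72) in IL1B samples. The lowest IL1B sample lay well above the highest PBS sample, so the groups did not overlap. The fold was 5.01, with a log2 change of 2.46 ± 0.16 (adjusted p = 3.515e-06). At P10 its level ranged over 5.74 to 7.18 (median 6.22) in PBS samples and over 8.76 to 9.67 (median 8.97) in IL1B samples. Again every IL1B sample was above every PBS sample, with a fold of 6.73 and a log2 change of 2.76 ± 0.25 (adjusted p = 0.000778). Across the alternatives that keep all arrays this change was 2.05 to 2.80. Il1b was therefore still called 5 days after the last injection, from a lower starting level. The difference of the log2 changes between the ages, 0.30, did not pass the test (adjusted p = 0.601).

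Il1a, the agonist that is active without cleavage, followed the same order of groups in O4+ cells. At P5 the PBS samples ranged over 7.33 to 8.01 (median 7.57) and the IL1B samples over 9.43 to 9.94 (median 9.74). No IL1B sample was as low as a PBS sample, and the fold was 4.47, with a log2 change of 2.08 ± 0.15 (adjusted p = 5.4e-06). At P10 the PBS samples ranged over 4.02 to 5.38 (median 4.91), 5 of 6 well above background, and the IL1B samples over 6.22 to 7.24 (median 6.77). These groups were apart as well, with a fold of 3.63 and a log2 change of 1.95 ± 0.25 (adjusted p = 0.0017), or 0.93 with normexp background correction. The difference between the ages, -0.14, did not pass (adjusted p = 0.825), but with normexp, where the P5 change was 1.74, it was -0.81 and passed (adjusted p = 0.00181).

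Both ligand changes in O4+ cells stood within slides that held both treatments. At P5 the difference of 1 IL1B from 4 PBS arrays on a slide was 2.51 for Il1b and 2.18 for Il1a, and that of 1 IL1B from 2 PBS arrays on another was 2.78 and 2.28. At P10 the difference of 2 IL1B from 5 PBS arrays was 2.69 for Il1b and 2.01 for Il1a, and on a slide with 1 array of each it was 2.60 and 2.20. The age comparison has no such control, since P5 and P10 arrays shared neither a slide nor a scan day.

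Markers of other cells moved with these changes in O4+ cells. At P5 9 of 15 microglia markers were called higher after IL1B, all others not called, with a median log2 change of 0.85, and their summed signal ranged from 314965 to 380017 in PBS samples and from 487664 to 584039 in IL1B samples. The brightest marker was Siglech in the former and Csf1r in the latter, and all 15 were above background on each array. Of 14 neutrophil and monocyte markers 13 were called higher at P5, with a summed signal of 642 to 957 in PBS and 6372 to 46498 in IL1B samples. Elane was the brightest in PBS and Lcn2 in IL1B samples, and Ngp, Ltf, Retnlg, Mmp8 and Ccr2 were above background on no PBS array. The median log2 change of this list was 3.44, or 2.57 with the genes below background in PBS at their lower limit.

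At P10 5 of 15 microglia markers were called higher in O4+ cells after IL1B, with a median log2 change of 0.43, while their summed signal ranged over 256262 to 332497 in PBS and 263562 to 357557 in IL1B samples, with Siglech the brightest in both. Of 14 neutrophil and monocyte markers 7 were called higher, with summed signals of 603 to 876 in PBS samples (brightest Elane) and 934 to 2196 in IL1B samples (brightest S100a9). Ngp, Ltf, Retnlg, Mmp8, Mmp9, Ccr2 and Mpo were above background on no PBS array and Mmp8 and Ccr2 on no IL1B array. The part of these lists in the changes of Il1a, Il1b and the other members was not tested.

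**Figure D4:**
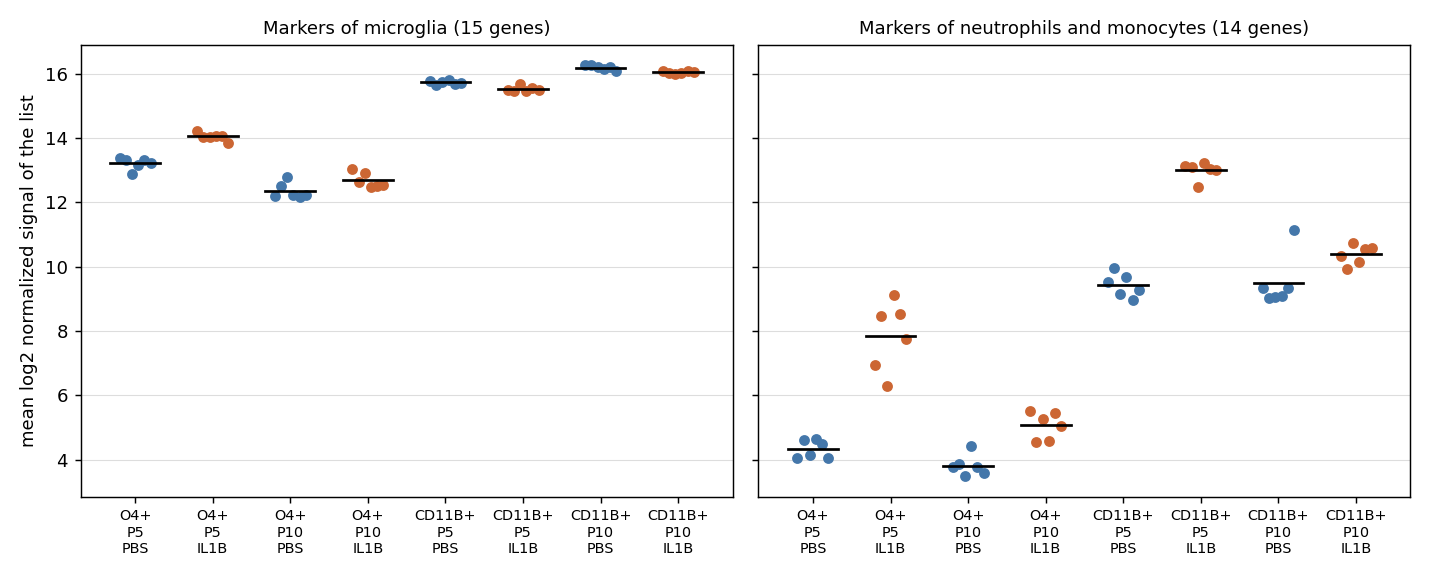
The mean log2 normalized signal of the 15 microglia markers and of the 14 neutrophil and monocyte markers (y axis, 1 point per array) in the 8 groups of 6 arrays, each cell type normalized on its own. The neutrophil and monocyte list was called higher after IL1B for 13 of 14 genes in O4+ cells and 14 of 14 in CD11B+ cells at P5, and 1 PBS array of CD11B+ cells at P10, replicate 6, lies above the other 5.

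In CD11B+ cells Il1b rose at P5 and missed the test at P10. At P5 the PBS samples ranged over 13.90 to 14.11 (median 13.98) and the IL1B samples over 14.59 to 14.92 (median 14.67). The groups were apart and narrow, with a fold of 1.60 and a log2 change of 0.74 ± 0.07 (adjusted p = 1.691e-05). At P10 the PBS samples ranged over 11.89 to 13.60 (median 12.30) and the IL1B samples over 13.18 to 13.79 (median 13.35). Here the groups overlapped, because PBS replicate 6 reached 13.60, and the log2 change of 0.94 ± 0.25 missed the threshold (adjusted p = 0.0503). It was called with scaling to the 75th percentile (0.99, adjusted p = 0.0435), with normexp background correction (0.91, adjusted p = 0.0276) and among probes above background only (adjusted p = 0.0212). With the slide in the fit the change was 0.47 (adjusted p = 0.703), and with the scan date it was 0.98 (adjusted p = 0.0722), neither a call. Within the only slide that holds both treatments the difference of 5 IL1B from 2 PBS arrays was 0.47 as well, and 1 of these 2 PBS arrays is replicate 6.

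That replicate had the highest value of its group in 7 of the 10 genes, with no gene far from the rest by the gap to the nearest sample. Among them were Il1a (11.48) and Il1r2 (7.90), and its neutrophil and monocyte markers summed to 179746, the top of a range that began at 31050 and had a median of 37434. The IL1B samples of the same age ranged over 62359 to 127165. S100a9 was the brightest of these markers in both groups, 13 of the 14 were above background on all PBS arrays and 14 on all IL1B arrays, and limma called 0 of them higher and 1 lower, with 10 higher at an unadjusted p under 0.05. Other lists set this array apart as well, by their mean log2 level. It was highest in astrocyte markers (10.27, others 9.08 to 9.47), pericyte and smooth muscle markers (6.92, others 6.04 to 6.34) and neuron markers (7.32, others 6.79 to 6.97), and lowest in microglia markers (16.07, others 16.13 to 16.26) and oligodendrocyte lineage markers (10.72, others 10.91 to 11.72). Without PBS replicate 6 the log2 change of Il1b was 1.17 with an adjusted p of 0.00147, which is a call. Whether any of these lists has a part in this was not tested.

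Il1a rose in CD11B+ cells at P5, from 10.84 to 11.20 (median 10.92) in PBS samples to 11.39 to 12.20 (median 11.97) in IL1B samples. Every IL1B sample was above every PBS sample, with a fold of 2.08 and a log2 change of 0.88 ± 0.13 (adjusted p = 0.00047). With the slide in the fit the change was 0.78 and no longer passed (adjusted p = 0.163), and 4 IL1B arrays differed from 1 PBS array of the same slide by 0.78. At P10 the PBS samples ranged over 10.59 to 11.48 (median 10.75) and the IL1B samples over 11.31 to 11.79 (median 11.61). The groups overlapped, and the fold of 1.81, with a log2 change of 0.66 ± 0.16 (adjusted p = 0.0352), was a call.

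This call of Il1a at P10 ended when single arrays were left out. Its adjusted p was 0.0795, 0.0841, 0.0778 and 0.0592 without PBS replicate 1, 2, 3 or 5, and 0.0677, 0.0672, 0.0636 and 0.0695 without IL1B replicate 2, 3, 4 or 5. With the slide in the fit it was 0.483 at a log2 change of 0.51, the same as the difference of 5 IL1B from 2 PBS arrays within a slide, 0.51. Of these 2 PBS arrays, replicate 6 had the highest Il1a of its group, 11.48, and replicate 5 had 10.77. Without replicate 6 the change was 0.77 (adjusted p = 0.00461).

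In the same comparison at P5 the marker lists of CD11B+ cells moved as well. All 14 neutrophil and monocyte markers were called higher, with a median log2 change of 3.91, and their summed signal ranged over 29607 to 68089 in PBS samples and 409213 to 626483 in IL1B samples, with S100a9 the brightest in both. In the PBS samples 13 of the 14 were above background on all arrays and none was below it on all. Of 15 microglia markers 4 were called lower, with a median of -0.16 and medians of the summed signal of 1335978 and 1204717, Csf1r being the brightest. Their part in the changes of the members at P5 was not tested.

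As a log2 change, the IL1B response of both ligands was larger in O4+ than in CD11B+ cells. In signal, the median of Il1b at P5 went from 1349.25 to 6756 in O4+ and from 16201.5 to 25978.5 in CD11B+ cells. That of Il1a went from 191.6 to 856.555 and from 1932.15 to 4021.55, each cell type normalized on its own. The difference of the log2 changes at P5 was 1.88 for Il1b (adjusted p = 5.165e-07) and 1.31 for Il1a (adjusted p = 8.823e-05). At P10 it was 1.90 for Il1b (adjusted p = 0.00274) and 1.29 for Il1a (adjusted p = 0.00887). All 4 differences also passed with the slide in the fit, where they were 2.15 and 1.58 at P5 and 2.12 and 1.45 at P10. With normexp background correction, which adds an offset to dim signals, the difference of Il1a at P10 was 0.26 and did not pass (adjusted p = 0.466), and that of Il1b at P10 was 1.11. The median log2 change of the microglia markers was 0.85 in O4+ and -0.16 in CD11B+ cells at P5, and 0.43 and -0.13 at P10. That of the neutrophil and monocyte markers was 3.44 and 3.91 at P5, and 1.10 and 0.99 at P10. With genes below background at their lower limit, the O4+ values were 2.57 and 0.09. The part of these lists in the differences was not tested.

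With age, the ligands fell in PBS samples of O4+ cells. Il1b was 18.1-fold lower at P10 than at P5, with a log2 change of -3.97 ± 0.26 (adjusted p = 5.235e-07), and Il1a was 6.36-fold lower, with a log2 change of -2.78 ± 0.24 (adjusted p = 3.492e-06), or -1.54 with normexp background correction. The change of Il1b was -3.99 to -3.19 across the alternatives that keep all arrays. All P10 samples of both ligands were below all P5 samples. In CD11B+ cells Il1b fell 3.21-fold, with a log2 change of -1.53 ± 0.24 (adjusted p = 0.000885) and groups apart, whereas Il1a, at -0.06, was not called. Microglia markers moved with age in O4+ cells, where 11 of 15 were called lower and 1 higher with a median of -1.08, and in CD11B+ cells, where 6 were called higher with a median of 0.38. Endothelial markers were lower with age in both, 8 of 11 called in O4+ cells (median -0.88) and 9 of 11 in CD11B+ cells (median -0.91), and so were 5 of 6 markers of border-associated macrophages in CD11B+ cells (median -0.87). Of 12 oligodendrocyte lineage markers 11 were called higher with age in CD11B+ cells (median 1.38) and 7 in O4+ cells (median 0.87). Of 6 progenitor markers 3 were called lower in O4+ cells (median -0.71) and 2 higher in CD11B+ cells (median 0.45). What these shifts add to the age change of the ligands was not tested. The age comparisons use the same PBS samples as the comparisons of IL1B with PBS.

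Between the cell types, normalized over all 48 arrays, the PBS samples at P5 had Il1b at 9.60 to 10.57 (median 10.26) in O4+ cells and 13.88 to 14.08 (median 13.96) in CD11B+ cells. Nothing overlapped, and O4+ cells were 13-fold lower at P5 (log2 difference -3.81 ± 0.16, adjusted p = 1.014e-09) and 82.8-fold lower at P10 (log2 difference -6.43 ± 0.32, adjusted p = 3.726e-09). Il1a was 12.8-fold lower at P5 (adjusted p = 4.457e-10) and 72.6-fold lower at P10 (adjusted p = 2.531e-10), where 5 of 6 arrays of O4+ cells measured it. Across the alternatives that keep all arrays, the log2 difference at P10 was -6.65 to -5.45 for Il1b and -6.58 to -4.60 for Il1a. The PBS arrays of the cell types shared no slide at P10, so no difference within a slide can be given there.

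Ordered by their medians over all 8 groups, the levels of Il1b were 5.95 in PBS and 8.75 in IL1B samples of O4+ cells at P10, 10.26 in PBS samples of O4+ cells at P5, 12.32 in PBS samples of CD11B+ cells at P10, 12.71 in IL1B samples of O4+ cells at P5, 13.33 in IL1B samples of CD11B+ cells at P10, and 13.96 and 14.61 in PBS and IL1B samples of CD11B+ cells at P5. In this order the PBS samples of CD11B+ cells at P10 overlapped with the IL1B samples of O4+ cells at P5 and with the IL1B samples of CD11B+ cells at P10, and all other neighbours were apart.

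The promoters of the ligands are shown because both genes moved together in each comparison of O4+ cells. They are RefSeq windows of the GRCm38.p6 build, 250 bases before and 50 after the start of the gene, printed 5′ to 3′ on the strand of the gene, for Il1a chr2:129309923-129310222, minus strand, and for Il1b chr2:129371090-129371389, minus strand. All 10 genes had such windows, 15 in total. They were searched on both strands for an AP-1 motif (TGANTCA), a C/EBP motif (TTGCNNAA) and the NF-kappaB motif, and 7.81%, 10.8% and 4.51% of 32851 promoters of this length hold them. Capitals mark a match, which in Il1a is an AP-1 match 12 bases before the start, while the Il1b window holds none of the 3 motifs.
Il1a: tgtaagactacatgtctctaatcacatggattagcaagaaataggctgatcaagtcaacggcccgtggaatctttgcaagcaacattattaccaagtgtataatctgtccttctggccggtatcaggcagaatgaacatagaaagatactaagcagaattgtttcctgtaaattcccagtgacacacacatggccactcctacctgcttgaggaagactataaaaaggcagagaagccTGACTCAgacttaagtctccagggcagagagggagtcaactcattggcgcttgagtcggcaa
Il1b: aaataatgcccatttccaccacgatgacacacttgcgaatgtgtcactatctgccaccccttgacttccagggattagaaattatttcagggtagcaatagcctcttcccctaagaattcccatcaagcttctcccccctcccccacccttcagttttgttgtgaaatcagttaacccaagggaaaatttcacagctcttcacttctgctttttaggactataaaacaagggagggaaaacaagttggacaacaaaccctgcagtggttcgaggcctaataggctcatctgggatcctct

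A match describes letters and no binding, and the lack of one says only that these letters are not in the window. Besides Il1a, AP-1 matched 1 window of Il1rn, C/EBP matched 1 window of Il33 and 1 of Il1r1, and NF-kappaB matched 1 window of Nlrp3 and 1 of Il1r1. Each motif occurred in windows of 2 of the 10 genes.

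Il33 encodes a cytokine of the IL1 family that is stored in the nucleus and released by damaged cells, and it signals through its own receptor together with IL1RAP. In O4+ cells it ranged over 5.40 to 6.15 (median 5.86) in PBS and 4.87 to 6.34 (median 5.59) in IL1B samples at P5, and over 6.36 to 7.34 (median 6.94) and 6.90 to 7.43 (median 7.19) at P10. The IL1B and PBS samples overlapped at both ages, with log2 changes of -0.22 (adjusted p = 0.582) and 0.29, and neither was called. With age it rose in O4+ cells: PBS samples at P10 all lay above those at P5, with a fold of 2.10 and a log2 change of 1.05 ± 0.19 (adjusted p = 0.00114), or 0.60 with normexp background correction. No other of the 10 genes was called higher with age in O4+ cells.

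In CD11B+ cells Il33 was near background at P5. PBS samples ranged over 3.12 to 5.83 (median 3.65) with 4 of 6 well above background, and IL1B samples over 1.56 to 3.95 (median 2.09) with 1 of 6. The highest PBS value, 5.83, belonged to replicate 5, whose astrocyte markers summed to 46640 at a group median of 10215, with Aldoc the brightest and all 8 markers above background on all arrays. The same array was highest in the mean log2 level of pericyte and smooth muscle markers (8.01, mean of the group 6.61), neuron markers (8.34, others 7.04 to 7.42) and oligodendrocyte progenitor markers (10.45, others 9.32 to 9.93). The part of these lists was not tested. The log2 change of -1.49 ± 0.55 was not called (adjusted p = 0.0812), but was called without IL1B replicate 5 (-1.79, adjusted p = 0.035). It was -0.26 with normexp background correction and -0.71 with the scan date as a block, neither a call. PBS replicate 5 was the only CD11B+ array of its scan day, and IL1B replicates 1 and 3 shared a day without PBS arrays. The fit with the scan date therefore rests on the other arrays. At P10 all samples were above background, the groups overlapped (4.11 to 6.04 (median 5.24) in PBS and 5.07 to 6.21 (median 5.56) in IL1B samples), and the change of 0.43 was not called.

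The difference between the responses of Il33 at P10 and P5 in CD11B+ cells, 1.92, passed narrowly (adjusted p = 0.042). It did not pass with the slide in the fit (1.37, adjusted p = 0.494), with the scan date (1.22, adjusted p = 0.162), with scaling to the 75th percentile (1.66, adjusted p = 0.0709) or with normexp background correction (0.42, adjusted p = 0.108), nor without PBS replicate 5 of P5 (1.54, adjusted p = 0.0638). It also ended without PBS replicate 6 or IL1B replicate 1, 2, 3 or 4 of P5, or without PBS replicate 1, 2, 3, 4 or 5 or IL1B replicate 1, 3, 4 or 5 of P10, where the difference was 1.71 to 1.95 and the adjusted p 0.0511 to 0.0791. With age the PBS samples changed by 1.20, which was not called (adjusted p = 0.0904), except without the same replicate 5 (1.58, adjusted p = 0.00389) or among probes above background only (adjusted p = 0.0444). Il33 was higher in O4+ than in CD11B+ cells by 3.32-fold at P5 (log2 difference 1.38 ± 0.41, adjusted p = 0.0126) and 2.26-fold at P10 (1.20 ± 0.29, adjusted p = 0.00327), with overlapping groups at both ages, and with the scan date as a block the P5 difference of 0.96 was not called (adjusted p = 0.085). With normexp the differences were 0.44 and 0.62. Of the astrocyte markers, 3 of 8 were called higher in O4+ cells at P5 with a median of 0.62 and 4 of 8 at P10 with 0.79. Other lists were higher there by more, with medians at P5 and P10 of 0.95 and 0.96 for endothelial cells, 1.22 and 1.03 for pericytes and smooth muscle, 0.88 and 1.45 for neurons and 4.80 and 4.90 for the oligodendrocyte lineage.

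Il18, a cytokine that needs caspase-1 for its release and then acts through the IL18 receptor, moved little with the treatment. In O4+ cells it ranged over 12.69 to 12.93 (median 12.72) in PBS and 12.45 to 12.69 (median 12.62) in IL1B samples at P5, and over 12.28 to 12.54 (median 12.48) and 12.33 to 12.67 (median 12.46) at P10. The ranges overlapped at both ages, and the log2 changes of -0.16 (adjusted p = 0.102) and 0.02 were not called. In CD11B+ cells at P5 PBS samples ranged over 11.58 to 11.85 (median 11.76) and IL1B samples over 11.62 to 11.85 (median 11.69), with a change of -0.03. At P10 the samples ranged over 11.83 to 12.26 (median 11.97) in PBS and 11.63 to 11.83 (median 11.73) in IL1B samples. There every IL1B sample lay below every PBS sample, and the log2 change of -0.31 (adjusted p = 0.042) did not reach the fold threshold.

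Like Il33, Il18 had more signal in O4+ than in CD11B+ cells. At P5 the PBS samples of O4+ cells were all higher, 1.86-fold, with a log2 difference of 0.95 ± 0.06 (adjusted p = 2.719e-08). At P10 the difference was 0.37 (adjusted p = 0.00165) with a fold of 1.37 and was not called. The call at P5 depends on scaling, since scaling to the 75th percentile gave 0.49 and the deposited matrix values 0.39, both under the fold threshold. With age its log2 changes in PBS samples were -0.29 in O4+ cells (adjusted p = 0.00219) and 0.28 in CD11B+ cells (adjusted p = 0.026), both below the fold threshold.

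Il1rn encodes the antagonist that blocks IL1R1. In O4+ cells it was close to the floor of the array, well above background on 1 array, a PBS sample at P10. At P5 each array of CD11B+ cells measured it, and it ranged over 4.54 to 5.23 (median 4.75) in PBS samples and 6.55 to 7.14 (median 7.06) in IL1B samples. The groups were apart, with a fold of 4.96 and a log2 change of 2.15 ± 0.14 (adjusted p = 1.416e-06), and the call held with the slide in the fit and with normexp background correction, where the change was 0.98. At P10 it was well above background on 1 PBS and 2 IL1B arrays, the groups overlapped (1.71 to 4.42 (median 3.03) and 3.23 to 5.29 (median 3.93)), and the log2 change of 1.01 was not called (adjusted p = 0.288). PBS samples at P10 were lower than at P5 by 3.08-fold, with a log2 change of -1.77 ± 0.45 (adjusted p = 0.0146), a fold that rests on 1 array above background at P10. With normexp background correction this change was -0.30, below the fold threshold, and with the slide in the fit it was -1.63 (adjusted p = 0.0647). The scan date as a block gave -1.77 (adjusted p = 0.225).

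In O4+ cells at P5 Il1rn was called, with a log2 change of 1.02 ± 0.23 (adjusted p = 0.00956) and ranges of 1.73 to 2.73 (median 2.07) in PBS and 2.60 to 3.56 (median 3.25) in IL1B samples. No array of either group was above background and the ranges overlapped, so no fold is given, and with normexp background correction the change was 0.12 and did not pass (adjusted p = 0.0687). At P10 the change was -0.76 and was not called. Set against O4+ cells, the PBS samples of CD11B+ cells at P5 had at least 3.03-fold more Il1rn (adjusted p = 1.576e-08), a call that normexp background correction ended through the fold (-0.54), and at P10 the log2 difference of -0.48 was not called. As no array of O4+ cells at P5 measured Il1rn, its response there cannot be sized against that of CD11B+ cells. The log2 difference of -1.24 between them (adjusted p = 0.00191) rests on values below background and did not pass with the slide in the fit (-0.84, adjusted p = 0.396) or with the deposited matrix values (-0.92, adjusted p = 0.0612).

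Il1rn has 3 windows in the promoter table. The most upstream is shown, since Il1rn rose in CD11B+ cells at P5 and its window holds an AP-1 match, in capitals, 141 bases before the start (chr2:24336610-24336909, plus strand). The other windows hold none of the 3 motifs.
Il1rn: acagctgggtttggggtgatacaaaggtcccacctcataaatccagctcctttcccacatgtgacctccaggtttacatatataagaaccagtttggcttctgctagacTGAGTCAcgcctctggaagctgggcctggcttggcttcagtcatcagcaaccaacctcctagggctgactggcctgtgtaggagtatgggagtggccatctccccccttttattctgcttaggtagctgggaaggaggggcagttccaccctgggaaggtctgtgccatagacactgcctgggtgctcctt

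Il1r1 encodes the receptor that carries the IL1 signal. In O4+ cells at P5 it ranged over 5.91 to 6.82 (median 6.51) in PBS and 7.05 to 8.22 (median 7.76) in IL1B samples. All IL1B samples were above all PBS samples, with a fold of 2.37 and a log2 change of 1.28 ± 0.21 (adjusted p = 0.00159). At P10 the ranges 4.58 to 6.28 (median 5.51) and 5.49 to 6.50 (median 5.96) overlapped, and the change of 0.52 was not called (adjusted p = 0.263). The difference between these responses, -0.75, did not pass (adjusted p = 0.173), except with normexp background correction (-0.65, adjusted p = 0.016).

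Il1r1 of CD11B+ cells at P5 ranged over 5.80 to 6.24 (median 6.12) in PBS and 6.32 to 7.09 (median 7.02) in IL1B samples. The groups did not overlap, and the fold was 1.86 with a log2 change of 0.72 ± 0.16 (adjusted p = 0.00755). The call ended with the slide in the fit, at a change of 0.71 (adjusted p = 0.342), and the difference of 4 IL1B arrays from 1 PBS array within a slide was 0.71. Normexp background correction also ended it, at 0.43, through the fold. By P10 the ranges were 5.37 to 6.02 (median 5.58) and 5.69 to 6.28 (median 6.09) and overlapped, and the change of 0.43 was not called (adjusted p = 0.0684).

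With age Il1r1 fell 2.00-fold in PBS samples of O4+ cells, with overlapping groups and a log2 change of -0.99 ± 0.27 (adjusted p = 0.0141). The slide as a random block gave -1.07 with an adjusted p of 0.0525, and normexp background correction gave -0.50, below the fold threshold. In CD11B+ cells the change of -0.46 (adjusted p = 0.0135) did not reach the fold threshold, except without PBS replicate 3, 4 or 6 of P10 (-0.46, -0.49 and -0.53). At P5 Il1r1, alone among the 10 genes, was not called between the cell types in PBS samples, at a log2 difference of -0.19. At P10 it was 1.51-fold lower in O4+ cells (-0.71 ± 0.24, adjusted p = 0.0272), with overlapping groups.

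That last call of Il1r1 ended in several fits. The adjusted p was 0.0608 without O4+ replicate 1 and 0.0544 and 0.0597 without CD11B+ replicate 4 or 6, and without O4+ replicate 5 or 6 or CD11B+ replicate 3 the fold fell under the threshold (log2 differences -0.70, -0.54 and -0.71). Scaling to the 75th percentile gave 0.0552, the slide as a random block 0.0582 and the replicate number as a block 0.06. Normexp background correction gave -0.29, below the fold threshold.

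Il1rap encodes the accessory chain that IL1R1 and the IL33 receptor share. In O4+ cells it was not called at either age, with levels of 7.78 to 8.22 (median 8.04) in PBS and 7.35 to 8.00 (median 7.92) in IL1B samples at P5 and 7.42 to 7.71 (median 7.62) and 7.50 to 7.95 (median 7.78) at P10. The groups overlapped at both ages, and the changes of -0.19 (adjusted p = 0.336) and 0.20 were not called. Another probe of the gene gave 0.47 at P5 (adjusted p = 0.0239, fold 1.46) and the last -0.28 (adjusted p = 0.199), neither of which was called. The 3 probes, which are annotated to different transcripts of the gene, did not share a direction.

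Il1rap of CD11B+ cells at P5 rose from 5.26 to 6.21 (median 5.59) in PBS samples to 6.41 to 7.42 (median 7.16) in IL1B samples. The groups were apart, with a fold of 2.98 and a log2 change of 1.39 ± 0.21 (adjusted p = 0.000557), and the other 2 probes were called as well, with folds of 2.75 and 2.93 on 4 and 1 PBS arrays above background. With the slide in the fit the change was 0.96 and did not pass (adjusted p = 0.198), and the difference of 4 IL1B arrays from 1 PBS array on a slide was 0.96. The P10 ranges 5.18 to 6.00 (median 5.68) and 5.61 to 5.88 (median 5.76) overlapped and the change was 0.10. The response was smaller at P10 than at P5 by a difference of -1.29 (adjusted p = 0.001), and smaller in O4+ than in CD11B+ cells at P5 by -1.56 (adjusted p = 0.000119). For the ages the other probes gave -1.91 (adjusted p = 0.00477) and -0.93, which did not pass (adjusted p = 0.251), and for the cell types -1.32 and -1.60, which passed. With normexp background correction the change at P5 was 0.79 and the 2 differences were -0.76 and -0.98. Neither difference passed with the slide in the fit, at -1.21 (adjusted p = 0.0861) and -1.22 (adjusted p = 0.0971).

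Il1rap had more signal in O4+ than in CD11B+ cells, the reverse of the ligands Il1a and Il1b. At P5 the PBS samples of O4+ cells were all higher, 3.83-fold, with a log2 difference of 1.78 ± 0.16 (adjusted p = 1.116e-06). At P10 they were again all higher, 2.66-fold, with 1.41 ± 0.14 (adjusted p = 2.098e-06). Its other probes gave 8.32-fold and 8.90-fold at P5, on 4 and 1 of 6 CD11B+ arrays above background, and 9.14-fold and at least 7.46-fold at P10. The mean over the probes gave log2 differences of 2.80 and 2.70, and normexp background correction 1.11 and 0.83. With age the log2 changes of -0.42 in O4+ cells (adjusted p = 0.0016) and -0.06 in CD11B+ cells were not called. The other probes gave 0.30 (adjusted p = 0.0811) and 0.09 in O4+ cells, against the direction of the first. In CD11B+ cells they gave 0.38 and -0.09, and none of these was called.

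Il1r2, the decoy receptor, had the largest change of the 10 genes after IL1B. At P5 the PBS samples of CD11B+ cells ranged over 7.72 to 8.81 (median 8.15) and IL1B samples over 11.66 to 12.72 (median 12.63). The lowest IL1B sample, replicate 3, was still far above the highest PBS sample. That array also had the lowest neutrophil and monocyte sum of its group, 409213 at a median of 567725. Its neuron markers summed to 69301 at a median of 8385, and the part of these lists was not tested. The fold of Il1r2 was 22.3, with a log2 change of 4.23 ± 0.22 (adjusted p = 2.874e-07). It was called also with the slide in the fit, where 4 IL1B arrays differed from 1 PBS array of their slide by 4.60. At P10 the ranges 6.15 to 7.90 (median 6.80) and 7.64 to 8.06 (median 7.83) overlapped, and the fold was 2.04 with a log2 change of 0.93 ± 0.23 (adjusted p = 0.0407).

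The call of Il1r2 at P10 depended on the arrays and on the slide. It ended on leaving out any single array other than PBS replicate 6, with adjusted p-values from 0.0559, without PBS replicate 5, to 0.0899, without PBS replicate 3, and without PBS replicate 6 it held at a log2 change of 1.13. With the slide in the fit the change was 0.30 (adjusted p = 0.776), the same as the difference within the 1 slide with 5 IL1B and 2 PBS arrays, of which replicate 6, at 7.90, is 1, and with the scan date it was 0.88 (adjusted p = 0.0755). The response at P10 was smaller than at P5 by -3.30 (adjusted p = 5.644e-07), and this difference passed with the slide in the fit as well (-4.30, adjusted p = 3.086e-05).

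In O4+ cells Il1r2 was above background on 2 of 6 PBS arrays and 6 of 6 IL1B arrays at P5. Its levels were 2.38 to 4.49 (median 3.56) and 4.97 to 6.85 (median 6.33), with every IL1B sample above every PBS sample. The fold was 6.93, with a log2 change of 2.58 ± 0.41 (adjusted p = 0.0013), and within the 2 slides that held both treatments the differences were 2.97 and 2.23. With normexp background correction the change was 0.89 and still called, so its size depends on how dim signals are treated. At P10 Il1r2 was above background on 1 array of each group, the ranges overlapped and the change was 0.04. The response was smaller at P10 than at P5 by -2.54 (adjusted p = 0.00448), or by -2.59 with the slide in the fit, which then missed the threshold (adjusted p = 0.0515), and by -0.90 with normexp.

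The difference between the Il1r2 responses of the cell types at P5, -1.49, passed narrowly (adjusted p = 0.0426) and did not pass in 19 of 32 other fits, among them those with the slide (adjusted p = 0.268) or the scan date (adjusted p = 0.0598) as a block and 16 that leave out 1 array. With normexp it was -3.02 and passed. Those arrays were O4+ PBS replicates 1, 2, 5 and 6, O4+ IL1B replicates 1, 3 and 6, CD11B+ PBS replicates 3, 4, 5 and 6, and CD11B+ IL1B replicates 1, 2, 4, 5 and 6, with adjusted p-values from 0.0534 to 0.0777. In PBS samples Il1r2 was 32.5-fold lower in O4+ than in CD11B+ cells at P5 (adjusted p = 2.634e-08) and 16.2-fold lower at P10 (adjusted p = 1.325e-06), where 2 and 1 of 6 arrays of O4+ cells measured it. The log2 differences were -5.13 and -4.09, and -2.55 and -1.56 with normexp. With age it fell 2.54-fold in CD11B+ cells, with overlapping groups and a log2 change of -1.34 ± 0.27 (adjusted p = 0.00415), a call that ended with the scan date as a block (-1.27, adjusted p = 0.125), and in O4+ cells the change of -0.31 was not called. Over the 8 groups the order of its medians was O4+ IL1B and O4+ PBS at P10, O4+ PBS and O4+ IL1B at P5, then CD11B+ PBS and CD11B+ IL1B at P10, and CD11B+ PBS and CD11B+ IL1B at P5. The first 3 groups overlapped, and so did all neighbours from O4+ IL1B at P5 up to CD11B+ PBS at P5. O4+ IL1B at P5 lay apart from the first 3, and CD11B+ IL1B at P5 from all others.

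The promoter of Il1r2 is shown as that of the gene with the largest change (chr1:40085843-40086142, plus strand). It holds none of the 3 motifs and so carries no capitals.
Il1r2: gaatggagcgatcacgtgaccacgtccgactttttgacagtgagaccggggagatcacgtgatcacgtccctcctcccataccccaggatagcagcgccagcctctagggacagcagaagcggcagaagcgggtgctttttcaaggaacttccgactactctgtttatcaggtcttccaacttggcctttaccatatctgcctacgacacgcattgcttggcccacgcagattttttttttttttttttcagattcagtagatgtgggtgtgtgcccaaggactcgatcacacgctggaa

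Nlrp3 encodes the sensor that assembles the inflammasome, a gene known to need priming by NF-kappaB signals. In O4+ cells at P5 it ranged over 4.61 to 5.70 (median 5.41) in PBS and 6.83 to 7.26 (median 6.91) in IL1B samples. The groups did not overlap, with a fold of 2.83 and a log2 change of 1.64 ± 0.16 (adjusted p = 6.03e-05). Its other probe, whose groups were apart too, gave 0.61 (adjusted p = 0.00152) at a fold of 1.46, just under the threshold, and normexp background correction 0.82. At P10 the ranges 3.81 to 4.74 (median 4.25) and 3.70 to 4.57 (median 4.43) overlapped, with 3 of 6 PBS and 5 of 6 IL1B arrays above background, and the change of 0.09 was not called. The response was smaller at P10 than at P5 by -1.55 (adjusted p = 0.000253), and this passed with the slide in the fit (-1.84, adjusted p = 0.00366) and with the other probe (-0.92, adjusted p = 0.00105), and was -0.80 with normexp.

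In CD11B+ cells Nlrp3 was not called after IL1B. At P5 the PBS samples ranged over 8.35 to 8.95 (median 8.68) and the IL1B samples over 8.88 to 9.48 (median 9.18), which overlap. The log2 change of 0.49 ± 0.13 (adjusted p = 0.0172) came with a fold of 1.40 and was not called, except without PBS replicate 1, 2 or 3 (0.51, 0.53 and 0.55). The P10 ranges 7.85 to 8.38 (median 8.10) and 8.17 to 8.62 (median 8.38) overlapped, and the change of 0.30 was not called (adjusted p = 0.0986). The response at P5 was larger in O4+ than in CD11B+ cells by 1.16 (adjusted p = 0.000538), but the other probe gave 0.19 (adjusted p = 0.455), the fit with the slide 1.23 (adjusted p = 0.0771) and normexp background correction 0.30 (adjusted p = 0.118). At P10 that difference was -0.20 and did not pass, while the other probe gave -0.66 and passed (adjusted p = 0.0187).

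Between cell types, Nlrp3 in PBS samples was 13.4-fold lower in O4+ cells at P5 (log2 difference -3.81 ± 0.17, adjusted p = 1.398e-09) and 19.8-fold lower at P10 (-4.33 ± 0.15, adjusted p = 1.5e-10), where 3 of 6 arrays of O4+ cells measured it. Its other probe, above background on all arrays, gave smaller folds of 5.37 at P5 and 4.34 at P10, and normexp background correction log2 differences of -2.38 and -2.20. With age the first probe was called lower in both cell types. In O4+ cells the fold was 2.23 (-1.12 ± 0.20, adjusted p = 0.000917), with overlapping groups, and normexp background correction gave -0.36, below the fold threshold. The other probe, with 6 of 6 arrays above background in both groups, also gave -0.36 there and was not called (fold 1.31, adjusted p = 0.0765). In CD11B+ cells the fold was 1.51 (-0.59 ± 0.12, adjusted p = 0.0036) and close to the threshold, and it fell below it without PBS replicate 1, 2 or 3 of P10 (-0.58, -0.54 and -0.55) or of P5 (-0.57, -0.55 and -0.54). The call also ended with normexp, at -0.50 through the fold, and with the scan date as a block (-0.57, adjusted p = 0.109). The other probe was called in CD11B+ cells with a fold of 1.63 and groups apart.

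Nlrp3 has 2 windows in the promoter table, and the upstream one is shown because it holds the NF-kappaB match, in capitals, 186 bases before the start (chr11:59541319-59541618, plus strand). The other window holds none of the 3 motifs.
Nlrp3: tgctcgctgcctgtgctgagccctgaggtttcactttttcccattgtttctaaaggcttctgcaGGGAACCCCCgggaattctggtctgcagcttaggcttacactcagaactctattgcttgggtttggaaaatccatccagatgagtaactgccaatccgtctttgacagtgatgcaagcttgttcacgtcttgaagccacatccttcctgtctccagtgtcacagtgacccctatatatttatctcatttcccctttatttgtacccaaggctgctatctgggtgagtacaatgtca

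Casp1 encodes caspase-1, the protease that the inflammasome activates. It was called after IL1B in O4+ cells at both ages. At P5 it ranged over 8.16 to 8.97 (median 8.88) in PBS and 9.98 to 10.59 (median 10.28) in IL1B samples, and at P10 over 7.05 to 7.83 (median 7.26) and 7.96 to 8.68 (median 8.09). Every IL1B sample was above every PBS sample at each age. The fold was 2.64 at P5, with a log2 change of 1.56 ± 0.16 (adjusted p = 6.273e-05), and 1.76 at P10, with 0.89 ± 0.16 (adjusted p = 0.00662). The difference of -0.67 between the ages did not pass (adjusted p = 0.0582), though it did in 8 of 32 other fits, among them those without O4+ PBS replicate 5 or 6 of P10 (adjusted p = 0.0479 and 0.0469), IL1B replicate 1 or 3 of P10 (0.0435 and 0.0286) or IL1B replicate 3 of P5 (0.0454).

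In CD11B+ cells Casp1 ranged over 12.23 to 12.50 (median 12.34) in PBS and 12.89 to 13.17 (median 12.97) in IL1B samples at P5. The groups were apart, and the fold was 1.55 with a log2 change of 0.65 ± 0.07 (adjusted p = 3.518e-05). The call ended with the slide in the fit, at 0.49 (adjusted p = 0.051), also the difference of 4 IL1B arrays from 1 PBS array of a slide, and with the deposited matrix values, at 0.53, through the fold. At P10 the PBS range of 11.88 to 12.27 and the IL1B range of 12.33 to 12.81 (median 12.41) were apart too, but the change of 0.46 ± 0.09 (adjusted p = 0.0214) had a fold of 1.33 and was not called. With the matrix values it was 0.58 and called. The response at P5 was larger in O4+ than in CD11B+ cells by 1.03 (adjusted p = 0.000423), and by 1.33 with the slide in the fit (adjusted p = 0.0176).

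In PBS samples Casp1 was 13.1-fold lower in O4+ cells at P5 (log2 difference -3.90 ± 0.14, adjusted p = 2.535e-10) and 32.7-fold lower at P10 (-5.00 ± 0.13, adjusted p = 1.448e-11). Over the 8 groups the order of medians was O4+ PBS at P10, O4+ IL1B at P10, O4+ PBS at P5, O4+ IL1B at P5, CD11B+ PBS at P10, CD11B+ PBS at P5, CD11B+ IL1B at P10 and CD11B+ IL1B at P5. Neighbours overlapped at 3 places, between O4+ IL1B at P10 and O4+ PBS at P5, and between CD11B+ PBS at P5 and the groups on either side of it. With age Casp1 fell 3.04-fold in O4+ cells, with groups apart and a log2 change of -1.38 ± 0.17 (adjusted p = 6.83e-05). In CD11B+ cells the change of -0.33 (adjusted p = 0.00739) did not reach the fold threshold.

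Counted over the 10 genes, the age comparison called 5 lower and 1 higher in O4+ cells, against 8.97% and 7.84% of all probes. The 5 were Il1a, Il1b, Il1r1, Nlrp3 and Casp1 and the 1 was Il33. In CD11B+ cells 4 were called, all lower, namely Il1b, Il1rn, Il1r2 and Nlrp3, against 3.62% of probes called lower and 4.65% higher. With the scan date as a block 1 of these 4 was called, since the adjusted p of Il1rn was 0.225, of Il1r2 0.125 and of Nlrp3 0.109. The median log2 change with age was -0.71 in O4+ and -0.39 in CD11B+ cells, beside 0.02 and 0.00 over all probes.

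Between the cell types 6 genes were called lower and 3 higher in O4+ cells at P5, where 21.8% of all probes were called lower and 19.8% higher. At P10 the counts were 6 and 2, where the shares of all probes were 20.2% and 22.2%. The share of 3 or 2 in 10 called higher is near that of the array and says nothing about the members. The 6 lower at P5 were Il1a, Il1b, Il1rn, Il1r2, Nlrp3 and Casp1, and at P10 Il1r1 took the place of Il1rn. The median log2 difference was -3.33 at P5, or -2.64 with Il1rn at its lower limit, and -2.40 at P10, beside -0.05 and 0.00 over all probes.

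For the difference between 2 responses the fold had no part in the test. Between the ages 2 of 10 genes passed in O4+ cells (Il1r2 and Nlrp3), against 13.2% of all probes, and 3 in CD11B+ cells (Il33, Il1rap and Il1r2), against 16.8%. Between the cell types 7 passed at P5, Il1rn among them on values below background in O4+ cells, against 10.7%, and 2 at P10 (Il1a and Il1b), against 7.56%. The counts of 2 and 3 between the ages are near the share of the array. With the slide in the fit 1, 1, 3 and 2 genes passed in these 4 comparisons, and the 3 at P5 were Il1a, Il1b and Casp1.

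**Figure D5:**
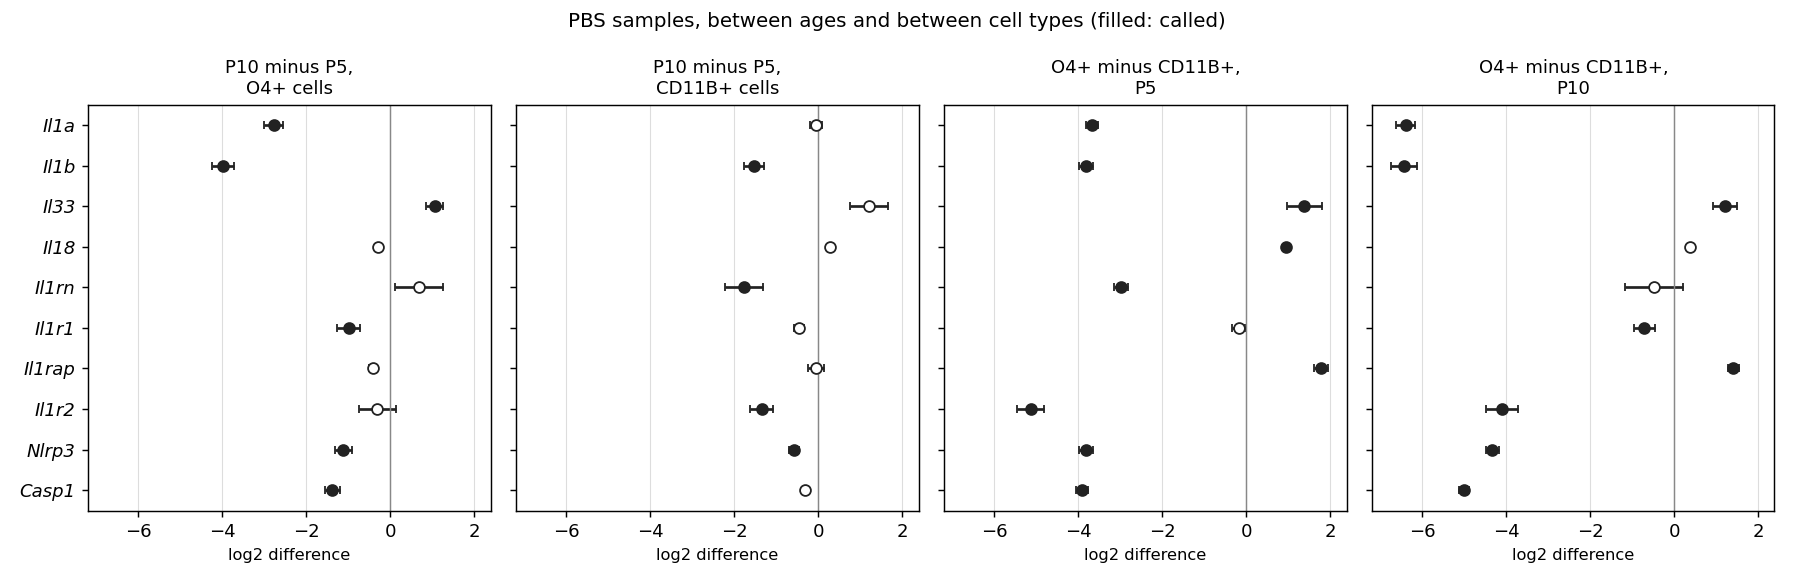
Log2 changes of the 10 genes in PBS samples (log2 units, error bars are the standard error of the limma fit, 6 arrays against 6), from P5 to P10 in each cell type and from CD11B+ to O4+ cells at each age, with filled points for called genes. Il1b fell by 3.97 with age in O4+ cells, and Il33 and Il1rap are the genes called higher in O4+ cells at both ages.

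Other genes of the pathway were read from lists chosen by function. Of 13 relatives of the IL1 family (other ligands, receptors and binding proteins) 5 were called higher after IL1B in CD11B+ cells at P5. Among these were Il1f9, an IL36 cytokine, with at least 23.8-fold, Il18rap and Il18r1, the chains of the IL18 receptor, with 12.9-fold and 7.62-fold on 2 and 1 PBS arrays above background, and Il18bp, which binds and blocks IL18, with 2.51-fold. In O4+ cells at P5 1 was called higher and 1 lower, Sigirr, an inhibitory receptor of the family, 1.95-fold. At P10 1 was called lower in O4+ cells, and in CD11B+ cells limma called 0, with 4 higher at an unadjusted p under 0.05. In PBS samples Il1rapl1 had 23.8-fold and 20.1-fold more signal in O4+ than in CD11B+ cells at P5 and P10, and Il1rl1, the IL33 receptor, 12.5-fold and 36.9-fold lower.

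With age 1 relative was called higher and 1 lower in O4+ cells, and in CD11B+ cells limma called 0, with 2 higher and 1 lower at an unadjusted p under 0.05. Between the cell types 7 had less signal in O4+ cells and 1 had more at P5, and 4 had less and 1 more at P10. Many of these probes were dim: 9 of the 13 in PBS samples of O4+ cells at P5 were above background on no array. No median is given for this list for that reason.

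The 21 genes that carry the signal from the receptor to NF-kappaB were mostly not called after IL1B. After IL1B 3 were called in O4+ cells at P5, all higher, namely the kinase Map3k8 (3.15-fold), the adaptor Myd88 (2.04-fold) and the inhibitory kinase-like Irak3 (1.83-fold), and at P10 1, Map3k8 (2.01-fold). In CD11B+ cells 2 were called at P5, Irak3 (3.59-fold) and Myd88 (1.61-fold), and 2 at P10, Irak3 (2.05-fold) and Map3k8 (1.57-fold). The medians of the list were 0.05, 0.03, 0.11 and 0.04. With age Map3k8 fell 4.94-fold and Irak3 rose 3.87-fold in O4+ cells, where 3 were called higher and 2 lower, and 2 were called lower in CD11B+ cells. Between the cell types 13 of 21 at P5 and 14 at P10 were called lower in O4+ cells, and 2 and 1 higher.

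Of 18 partners of the inflammasome 6 were called higher after IL1B in O4+ cells at P5. They included Casp4, the caspase that senses lipopolysaccharide (5.41-fold), Mefv, which encodes pyrin (at least 2.53-fold), Naip2, a receptor of the NLRC4 inflammasome (2.75-fold), and Gsdmd, the pore-forming target of caspase-1 (2.43-fold). At P10 O4+ cells had 3 called higher, besides 1 lower, Casp4 again among the former (2.47-fold). In CD11B+ cells Mefv and Casp4 were called higher at P5 and Panx1 lower, with Mefv at 17.7-fold and Casp4 at 2.34-fold, and at P10 the same 2 genes were called higher, at 2.93-fold and 2.06-fold. With age 9 fell and 4 rose in O4+ cells, and 2 fell and 3 rose in CD11B+ cells. Between the cell types 12 and 13 of 18 were called lower in O4+ cells at P5 and P10, and Panx1 higher at each age.

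Of 20 genes known to be induced by IL1, 16 were called higher after IL1B in O4+ cells at P5 and 8 at P10. At P5 these included Lcn2 (114-fold), which is also in the neutrophil and monocyte list, and the adhesion molecules Selp (at least 11.8-fold) and Sele (at least 2.46-fold). At P10 they included the chemokines Cxcl1 (4.05-fold) and Cxcl2 (3.05-fold, 4 of 6 PBS arrays above background) and the NF-kappaB regulators Tnfaip3 (2.29-fold) and Nfkbiz (1.78-fold). At P5 the CD11B+ cells had 8 of them called higher besides 2 lower, among them Lcn2 with 36.8-fold and Nos2 with 8.54-fold more signal and Cxcl1 with 1.67-fold less, and 1 was called at P10, Vcam1 (1.89-fold). With age 12 of the 20 fell in O4+ cells and 7 fell and 1 rose in CD11B+ cells, and between the cell types 14 at P5 and 13 at P10 were lower in O4+ cells, with 1 higher at each age.

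The remaining marker lists moved with the treatment as follows. After IL1B 8 of 11 endothelial markers were called lower in O4+ cells and 9 in CD11B+ cells at P5, with medians of -0.81 and -1.02, and at P10 limma called 0 in either, with 1 and 4 lower at an unadjusted p under 0.05. Of 6 pericyte and smooth muscle markers 4 were called lower in CD11B+ cells at P5, and of 6 markers of border-associated macrophages 2 were called higher in O4+ cells at P5. Astrocyte markers had 3 of 8 called higher in O4+ cells at P10, and of 8 neuron markers 1 was called higher in O4+ cells and 1 lower in CD11B+ cells at P10. Of the 12 oligodendrocyte lineage markers 1 and 2 were called lower in O4+ cells at P5 and P10, and of the 6 progenitor markers 2 were called higher in O4+ cells at P10. The CD11B+ cells had 4 and 5 of the 12 lineage markers called lower at P5 and P10, and 2 higher at P5. They also had 2 of 6 progenitor markers called lower at P5, and of the astrocyte markers 1 higher and 1 lower at P5 and 1 higher at P10. The part of these lists in the changes of the members was not tested.

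The members were also set beside all 25212 genes measured above background on at least 6 of the 48 arrays, by Pearson correlation of log2 levels over the 48 arrays. The closest to Casp1 were Ctsc (r = 0.997), Rac2 (0.996) and Ncf4 (0.996), and the closest to Nlrp3 were Rbm47, Csrnp1 and Ifrd1 (each 0.990). Il1a was closest to Tgif1 (0.993), Bcl2a1d (0.990) and Plek (0.990), and Il1b to Nab2 (0.982), Arl5c (0.981) and Niacr1 (0.980). In PBS samples these 4 members were higher in CD11B+ than in O4+ cells, so the correlations include the difference between the cell types.

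Il1r2 was closest to a probe without a gene name (0.987), then to Mmp8 (0.979), a marker of the neutrophil and monocyte list, and Mrgpra2b (0.978). Il1rn was above background on 16 of 48 arrays, too few for its correlations to be read. For Il1r1 the genes were Tnfsf10 (0.907), 1200009I06Rik (0.902) and Serpinb9 (0.878), and for Il1rap Nt5e (0.946), Slc22a15 (0.926) and Darc (0.920). Il33 was closest to Igsf1 (0.911), Fgf1 (0.898) and Ntsr2 (0.892), and Il18 to Unc79 (0.956) and Zfp191 (0.954). In PBS samples Il1r2 was lower in O4+ than in CD11B+ cells, and Il1rap, Il33 and Il18 were higher. Their correlations therefore include the difference between the cell types as well. Among the members themselves over the 48 arrays, Casp1 and Nlrp3 had r = 0.99, Il1a and Il1b 0.97, and Il18 and Casp1 -0.83. The sign of the last pair is that of Il18, which alone of these had more signal in O4+ cells.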

How the data were processed

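Total RNA of 48 samples was labelled with Cy3 by the authors and scanned as 1 array each. The deposited scanner files (Feature Extraction 10.7.3.1) give a background-subtracted intensity for each of 59305 spots. Each column of the deposited matrix has a median of 1, and its values are the ratio of that signal to the median of the array (largest log2 deviation 1.86e-05). The matrix served as an alternative. On all arrays together 278 non-uniform and 5097 population-outlier spots were left out, and 0 were saturated. Between 52.9% and 65.4% of probes were well above background per array, and the lowest correlation within a group was 0.959. The number of arrays limits the precision.

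Log2 intensities were quantile-normalized over 24 arrays, or over 48 for comparisons of cell types, and the spots of a probe (10 for Il1b) were averaged. The tests used limma 3.58.1 (R 4.3.3; files read by version 1.17.8 of data.table), with p-values adjusted by Benjamini-Hochberg over 55681 probes. Differences between responses were interaction terms without a fold threshold. A gene below background on all arrays of 1 group is given as a lower limit. The alternatives tried were the matrix values, normexp with an offset of 50, scaling to the 75th percentile and only probes above background. Others were the methods' test of 2 groups, no fold threshold, the fold from mean log2 values and the mean over the probes of a gene. The slide, the scan date or the replicate number also served as a block, and each array was left out in turn. A slide or scan date that held both groups entered as a fixed block, otherwise as a random one.

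All 10 members were named, and of each list up to 4 called genes per comparison and direction with the largest folds that were above background on all arrays of the brighter group. The lists were microglia, neutrophils and monocytes, border-associated macrophages, endothelial cells, pericytes and smooth muscle, astrocytes, neurons, oligodendrocyte lineage, oligodendrocyte progenitors, IL1 family relatives, IL1 receptor signalling, inflammasome partners and IL1-responsive genes. The members and lists were chosen with earlier results of these data known. Promoter sequences are those of RefSeq.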

Additional observations from a re-analysis of the deposited data

Results flagged for a closer look

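Of 80 groups of 6 arrays, 1 for each gene and group, 5 had a single sample far from the rest, and chance alone gives about 1 in 20 such groups. Il18 was 12.93 in PBS replicate 4 of O4+ cells at P5, with the nearest sample at 12.75. In the same sample Nlrp3 was 4.61, below the nearest at 5.34. Il1r1 was 5.80 in PBS replicate 3 of CD11B+ cells at P5, below 6.09. Il1r2 was 11.66 in IL1B replicate 3 of CD11B+ cells at P5, below 12.45. Nlrp3 was 3.70 in IL1B replicate 2 of O4+ cells at P10, below 4.29.

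In 14 cases the log2 response to IL1B differed between 2 ages or cell types by the interaction test. From P5 to P10 it differed in O4+ cells by -2.54 for Il1r2 and by -1.55 for Nlrp3. In CD11B+ cells the response at P10 minus that at P5 was 1.92 for Il33, -1.29 for Il1rap and -3.30 for Il1r2. For O4+ minus CD11B+ cells at P5 the difference was 1.31 for Il1a, 1.88 for Il1b, -1.56 for Il1rap, -1.49 for Il1r2, 1.16 for Nlrp3 and 1.03 for Casp1. The value of -1.24 for Il1rn rests on O4+ arrays of which none was above background, so it does not size the response of these cells. At P10 it was 1.29 for Il1a and 1.90 for Il1b.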

How the results depend on the processing

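Over the alternatives that keep all arrays, single genes stayed on their side of the threshold in 824 cases, lost a call in 31 and gained one in 16, and 0 called changes turned direction. With the slide as a block 3 of 10 genes instead of 7 were called after IL1B in CD11B+ cells at P5 (Il1b, Il1rn and Il1r2), and 0 instead of 2 at P10, with 3 at an unadjusted p under 0.05 in limma. Of the differences between responses it left 1 gene instead of 2 between the ages in O4+ cells, 1 instead of 3 in CD11B+ cells, and 3 instead of 7 between the cell types at P5. At P5 in CD11B+ cells this fit rests on the 1 slide with both treatments, which holds 4 IL1B arrays and 1 PBS array. What part this has in the counts was not tested.

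The count of 2 in CD11B+ cells at P10 became 1 with the scan date as a block, 1 with the methods' test of 2 groups and 4 without a fold threshold. It was 3 with scaling to the 75th percentile, normexp, the matrix values, only probes above background or the mean over probes. Leaving out 1 array gave 0 to 3 there, with 3 without PBS replicate 6, and over all probes 211 to 1415 higher and 200 to 1323 lower against 605 and 604. For age in CD11B+ cells 2 genes instead of 4 were called with normexp, 1 with the scan date as a block and 7 without a fold threshold. Between the responses of O4+ cells at P10 and P5 5 genes instead of 2 passed with normexp. Leaving out 1 array gave 2 to 5 there, with 5 without IL1B replicate 1 of P10, and 2 to 4 in CD11B+ cells. Of other counts, leaving out 1 array gave 7 to 8 after IL1B in CD11B+ cells at P5, 3 to 5 for age in CD11B+ cells, 7 to 8 between the cell types at P10, and 6 to 7 and 2 to 3 for the difference of responses between them at P5 and P10. The causes were not tested.

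Samples of the 8 groups share replicate numbers. The paper states that the cell types came from the same animals, but the labels do not say that equal numbers mark equal animals, and the replicate number is no part of the fits in the report. Deviations from the group means over 24540 probes correlated between O4+ and CD11B+ samples of the same number at 0.04 to 0.36 in PBS samples at P5, where 5 of 6 correlated best with their own number, and at -0.06 to 0.35 at P10, with 4 of 6. For IL1B samples it was -0.03 to 0.23 at P5, with 2 of 6, and 0.26 to 0.71 at P10, with 6 of 6. The 0.71 is that of replicate 6, whose arrays of both cell types shared a slide that held no other array of their groups. PBS replicate 6 of O4+ cells at P10, from pups of the other treatment, lay on that slide too. It correlated with IL1B replicate 6 of O4+ cells at 0.82. With the replicate number as a block the counts of called genes were 7 and 3 in O4+ cells and 8 and 0 in CD11B+ cells at P5 and P10, 6 and 4 for age in O4+ and CD11B+ cells, and 9 and 7 between the cell types at P5 and P10. For the differences of responses the block gave 2 and 3 between the ages and 7 and 3 between the cell types. The count of 0 in limma had 7 genes at an unadjusted p under 0.05. With this block the adjusted p was 0.06 for Il1r1 between the cell types at P10, and 0.0894 for Il1a and 0.0557 for Il1r2 after IL1B in CD11B+ cells at P10, which ended these 3 calls, and 0.00731 for Il33 in CD11B+ cells at P5, which made it a call.

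Scaling moved the balance of calls over all probes. After IL1B in O4+ cells at P10, 1387 probes were higher and 791 lower, but 1535 and 2067 with scaling to the 75th percentile and 1682 and 1577 with the matrix values. In CD11B+ cells at P5 2256 and 2918 became 2834 and 2362 with the 75th percentile, but 1987 and 3363 with the matrix values. At P10 605 and 604 became 708 and 385 with the matrix values. Those values also gave 1829 and 1306 instead of 1907 and 826 in O4+ cells at P5, and 9599 and 18222 instead of 11032 and 12139 between the cell types at P5. With age in O4+ cells 4368 higher and 4993 lower turned to 5723 and 4599 with the 75th percentile and 5746 and 4577 with the matrix values, and between the cell types at P10 12361 and 11257 turned to 11253 and 12824 with the matrix values. In CD11B+ cells with age 2591 and 2013 became 2323 and 2326 with the 75th percentile. Signal over background limits what can be read for Il1rn, Il1r2, Nlrp3 and Il33.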
